A study of Arabidopsis thaliana with 9 samples.

Results

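The type-A Arabidopsis response regulators (type-A ARR genes) are a family of 10 genes, taken here by their locus identifiers from a table of 27647 loci of Arabidopsis thaliana. They are ARR3 (AT1G59940), ARR4 (AT1G10470), ARR5 (AT3G48100), ARR6 (AT5G62920), ARR7 (AT1G19050), ARR8 (AT2G41310), ARR9 (AT3G57040), ARR15 (AT1G74890), ARR16 (AT2G40670) and ARR17 (AT3G56380). Their transcript levels were measured by messenger RNA sequencing of whole seedlings, in 3 groups with 3 replicates per group and 9 libraries in all. The first group was the wild-type strain Col-0 given 2 µM Brz in its growth medium, a compound that the labels do not spell out (in work on brassinosteroids the abbreviation usually stands for brassinazole, an inhibitor of brassinosteroid synthesis). The second was MIR394A OE, a line overexpressing the microRNA gene MIR394A, for which the labels give neither the promoter, nor the background strain, nor the number of lines. The third was untreated Col-0. All seedlings were 5 days old and had been kept as seeds at 4 °C for 4 days before growth at 22 °C in cycles of 16 h of light and 8 h of darkness. Separate growths are not stated for the replicates. The p-values therefore reflect the scatter among these libraries, part of which may be technical. The MIR394A transcript itself was not analysed here.

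Cytokinins are adenine-derived plant hormones that promote cell division in shoots, hold back root growth and delay leaf ageing. Histidine kinase receptors (AHK proteins) bind the hormone and pass a phosphate through phosphotransfer proteins (AHPs) to response regulators in the nucleus. Type-B regulators are transcription factors that switch on cytokinin-response genes when phosphorylated. The type-A genes are among their direct and fastest targets. Type-A proteins have a receiver domain and little else, and they dampen the pathway that induces them, so their transcripts are widely used as a readout of cytokinin signalling. The family is made up of sister pairs that descend from duplications: ARR3 with ARR4, ARR5 with ARR6, ARR7 with ARR15, ARR8 with ARR9, and ARR16 with ARR17.

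Type-B regulators bind short DNA elements built around the letters AGAT, and the 250 bases upstream of each annotated gene start were searched for such letters in the RefSeq assembly TAIR10.1. The deposited table names no genome build, so these windows belong to the assembly and not to the table. Windows are printed for ARR3, ARR4 and ARR6, the members called higher in Brz-treated seedlings below, and for ARR7, which was added after its matches were seen because it held the most. Capitals mark AGATT or AAGATC on either strand, so that AATCT and GATCTT are the same letters read on the other strand. All 4 genes lie on the minus strand, the windows are written 5′ to 3′ towards the gene, and no other annotated gene overlaps them. The ARR3 window is chr1:22067234-22067483, that of ARR4 is chr1:3444361-3444610, that of ARR6 is chr5:25254319-25254568 and that of ARR7 is chr1:6579315-6579564.
ARR3: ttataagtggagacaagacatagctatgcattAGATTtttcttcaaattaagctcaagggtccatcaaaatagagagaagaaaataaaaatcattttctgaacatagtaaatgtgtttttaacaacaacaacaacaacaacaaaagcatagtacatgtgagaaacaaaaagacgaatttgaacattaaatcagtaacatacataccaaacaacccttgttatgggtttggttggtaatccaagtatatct
ARR4: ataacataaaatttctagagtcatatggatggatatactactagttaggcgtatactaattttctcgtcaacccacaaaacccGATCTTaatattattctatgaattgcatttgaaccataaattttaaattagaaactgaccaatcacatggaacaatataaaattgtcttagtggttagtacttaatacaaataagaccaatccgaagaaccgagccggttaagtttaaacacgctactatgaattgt
ARR6: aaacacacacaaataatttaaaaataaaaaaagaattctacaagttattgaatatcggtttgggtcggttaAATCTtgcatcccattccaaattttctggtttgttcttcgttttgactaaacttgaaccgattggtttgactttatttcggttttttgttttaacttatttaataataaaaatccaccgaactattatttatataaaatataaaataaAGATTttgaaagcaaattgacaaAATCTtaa
ARR7: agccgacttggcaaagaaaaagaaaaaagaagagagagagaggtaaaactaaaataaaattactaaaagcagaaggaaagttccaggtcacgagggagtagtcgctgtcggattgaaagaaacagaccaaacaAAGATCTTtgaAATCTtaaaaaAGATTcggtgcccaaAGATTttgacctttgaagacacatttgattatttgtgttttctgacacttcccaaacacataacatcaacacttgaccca

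The core letters AGATT were found in the windows of 7 of the 10 members, and in 62.4% of the windows of 17530 genes. The longer forms AAGATT, which contains the core, and AAGATC were each found in 5 members, against 29.2% and 11.5% of all windows. At least 1 of these longer forms stood in 8 of the 10 member windows, against 37.5% of all windows, a combined count made after the separate counts had been seen. The ARR7 window held 5 matches to the longer forms between 117 and 80 bases before the gene start, a number reached by 0.04% of windows. The first 2 of these overlap, because AAGATCTT reads as AAGATC on both strands. ARR6 and ARR16 held 3 each, which 1.84% of windows reach. ARR3, the member with the largest fold change below, held a single AGATT 218 bases before the start and neither longer form, and ARR8 held neither as well. The letters CGTGTG and CGTGCG, known as elements bound by the brassinosteroid factor BZR1, and the G-box CACGTG were in none of the 10 windows, against 5.5%, 1.7% and 7.4% of all windows. These counts describe letters in a window and not binding.

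Levels are given as FPKM, fragments scaled by transcript length and library depth, the unit in which the table was deposited. The scaling is meant to make genes of different length comparable, although fold changes of Brz-treated seedlings still followed length, as described below. Depth fitted from the steps between low FPKM values lay between 21.55 and 22.2 M reads per library. On a principal component analysis the first component, with 61.9% of the variance, separated the Brz-treated libraries from the others, with Brz replicate 1 at 23.8, the other Brz replicates at 64.9 and 64.5, and the remaining 6 libraries between -30.7 and -18.2. On the second component (16.7%), Brz replicate 1, MIR394A OE replicate 3 and Col-0 replicate 2 lay together at -23.6, -29.0 and -26.0, apart from the other 6 at 3.56 to 25.6. Shoot, root and vascular marker transcripts were detected in all groups, and no marker was at 0 throughout a group.

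The family spanned a wide range of levels and was dominated by ARR4. ARR4, which has been reported to interact with the red-light receptor phytochrome B, averaged 79.6 ± 12.6 FPKM in Brz-treated seedlings, 54.7 ± 1.5 FPKM in MIR394A OE and 51.1 ± 6.18 FPKM in Col-0 (SD, n = 3 each, as for all means below). It made up between 39.2% and 57.0% of the summed FPKM of the 10 genes in any library. ARR9 came next in each group, at 32.1 ± 3.25, 27.1 ± 9.76 and 26.0 ± 6.52 FPKM in Brz-treated, MIR394A OE and Col-0 seedlings. In every group the ranges of ARR4 and ARR9, and of ARR9 and ARR6, did not overlap. ARR6, ARR5 and ARR7 followed in that order, and the neighbours among them overlapped in range except ARR6 and ARR5 in MIR394A OE. ARR3 changed its place in this order. It had rank 6 in Brz-treated seedlings, where its range lay above that of ARR16, rank 7 in MIR394A OE, and rank 8 in Col-0, where its range overlapped those of ARR16 and ARR15. ARR8 and ARR16, next above it in Col-0, are longer, at 2370 and 2073 bases against 1311. Fold changes in Brz-treated seedlings followed length, as described below, and the part of length in these ranks was not tested.

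ARR17 was the least abundant member and too low to test. It was listed at 0.49, 0 and 0.40 FPKM in the Brz-treated libraries, at 0.19, 0 and 0 FPKM in MIR394A OE and at 0, 0.32 and 0.19 FPKM in Col-0, in the order of replicates 1 to 3 used throughout. At the fitted depth these values amount to at most 6.21 reads, so a difference of ARR17 between groups was not detectable. The other 9 members passed the filter of at least 1 FPKM in at least 3 libraries. ARR15 and ARR16 had between 9.99 and 124 estimated reads per library, ARR3 15.9 to 239 and ARR4 1919 to 3947.

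**Figure D1:**
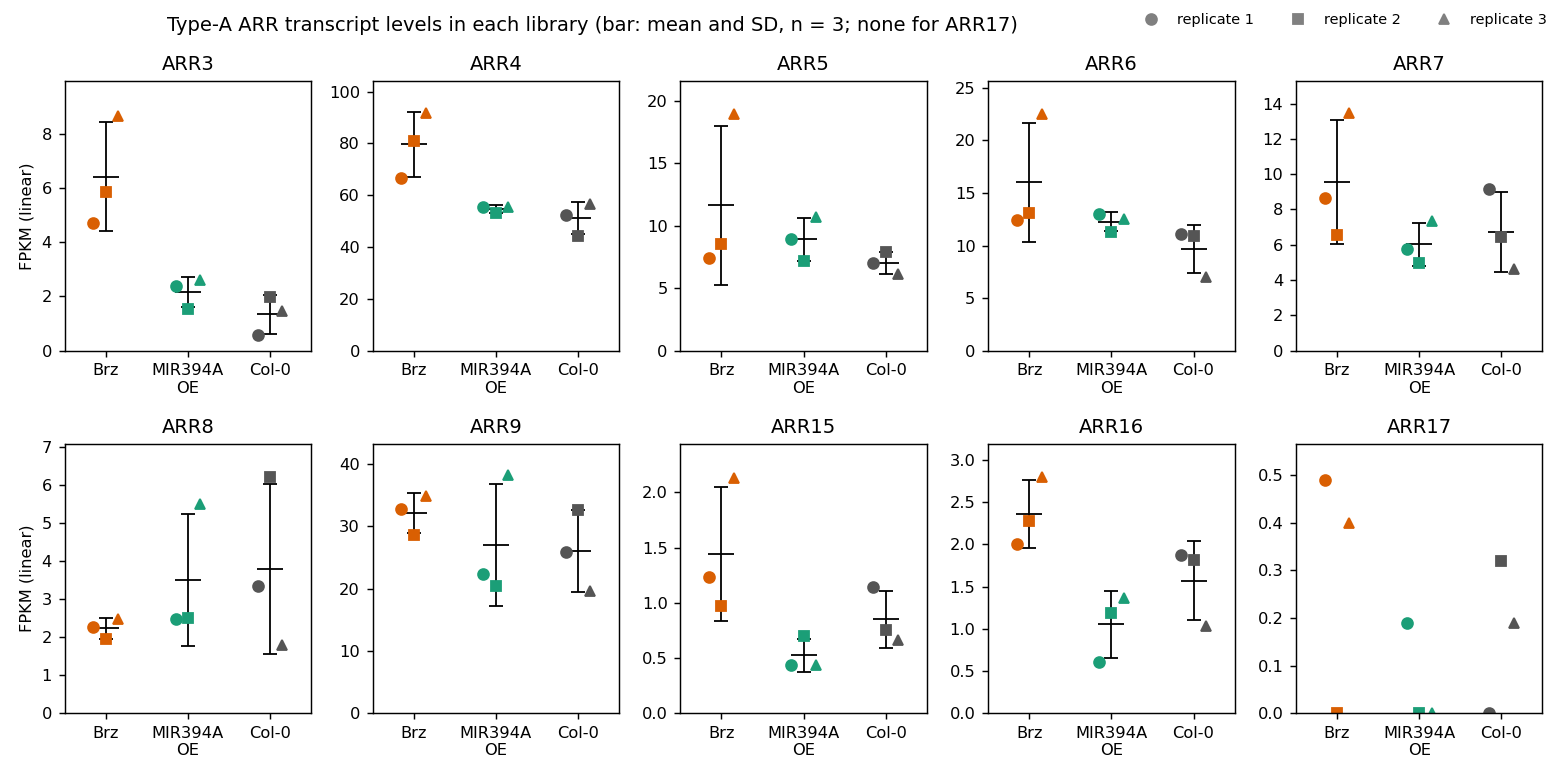
FPKM (linear axis, a separate scale for each gene) of the 10 type-A ARR genes in the 3 libraries of Brz-treated Col-0, MIR394A OE and Col-0; symbols give the replicate and the bar the mean and SD, which are left out for ARR17. ARR3 and ARR4 lie higher in all 3 Brz-treated libraries than in any other, and Brz replicate 3 is the highest Brz-treated library for 9 of the 10 genes.

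Type-A transcripts were higher in Brz-treated seedlings than in untreated Col-0 for 3 of the 9 members tested, ARR3, ARR4 and ARR6, and no member was called lower. Calls are genes under 0.05 after Benjamini-Hochberg adjustment in limma, a linear model fitted to log2(FPKM + 1) of 17662 genes together. A fold change on this scale understates the change of low genes. Of all genes tested, 13.2% were called higher and 28.7% lower. The median log2 fold change of the 9 members was 0.44, against -0.22 over all genes, and 8 of the 9 were above 0. In whole seedlings, fewer cells of a type and less RNA per cell cannot be told apart.

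ARR3 had the largest change. It stood at 4.72, 5.86 and 8.63 FPKM in the Brz-treated libraries, against 0.57, 1.97 and 1.47 FPKM in Col-0. The lowest Brz-treated library was thus above the highest Col-0 library, and the ratio of the group means was 4.79. The log2 fold change was 1.68 ± 0.26 (SE), with a limma adjusted p of 0.000992, and it stayed called in all 15 alternative analyses that hold the gene (adjusted p 0.000924 to 0.00682).

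ARR4, the sister of ARR3 and the most abundant member, was called as well. Its levels were 66.5, 80.8 and 91.6 FPKM in the Brz-treated libraries and 52.5, 44.3 and 56.4 FPKM in Col-0. All Brz-treated libraries were above all Col-0 libraries, with a log2 fold change of 0.62 ± 0.15 and a limma adjusted p of 0.00633. The call held in all 16 alternatives (adjusted p 0.00171 to 0.0373). ARR3 and ARR4 have been linked to the period of the circadian clock as well as to cytokinin.

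ARR6 was the third member called, and its call rested on few libraries. It had 12.5, 13.1 and 22.6 FPKM in the Brz-treated libraries, against 11.1, 10.9 and 7.05 FPKM in Col-0. The groups did not overlap, but Brz replicate 3 was well above and Col-0 replicate 3 well below the rest. The log2 fold change was 0.65 ± 0.23 (limma adjusted p = 0.0384). Leaving out Brz replicate 3 gave 0.39 (adjusted p = 0.177), leaving out Col-0 replicate 3 gave 0.46 (adjusted p = 0.141), and leaving out Brz replicate 2 gave 0.76 (adjusted p = 0.0533). The annotated ARR6 locus overlaps AT5G62910 by 348 bases, and whether counting used the strand is not given in the sources used here.

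ARR5, ARR7 and ARR15, rapidly induced by cytokinin and known to be repressed by the stem-cell factor WUSCHEL in the shoot meristem, did not pass the test. ARR5 had 7.39, 8.58 and 18.9 FPKM in the Brz-treated libraries and 7.06, 7.88 and 6.12 FPKM in Col-0. Brz replicate 3 alone was far above the Col-0 range, and the log2 fold change was 0.55 ± 0.28 (limma adjusted p = 0.129). ARR5 was called once Brz replicate 1 was left out, at 0.79 (adjusted p = 0.0448), where 13.1% of all genes were called higher. ARR7 had 8.65, 6.56 and 13.4 FPKM in Brz-treated seedlings, against 9.14, 6.42 and 4.64 FPKM in Col-0. Its groups overlapped, and its log2 fold change was 0.44 ± 0.26 (limma adjusted p = 0.197). ARR15 stood at 1.23, 0.97 and 2.13 FPKM in Brz-treated seedlings and 1.14, 0.75 and 0.66 FPKM in Col-0, overlapping again, with 0.38 ± 0.19 (limma adjusted p = 0.127).

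ARR16, which has a known role in the stomatal lineage, had 2.00, 2.27 and 2.79 FPKM in Brz-treated seedlings and 1.87, 1.81 and 1.03 FPKM in Col-0. Its groups did not overlap, but the log2 fold change of 0.39 ± 0.20 missed the threshold (limma adjusted p = 0.130). ARR3, ARR4, ARR6 and ARR16 were the 4 members whose Brz-treated libraries all lay above the Col-0 libraries, against 18.1% of all genes tested, and no member lay wholly below, against 32% of genes.

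The remaining pair, ARR8 and ARR9, was not called. ARR9 had 32.8, 28.6 and 34.9 FPKM in Brz-treated seedlings, against 25.9, 32.6 and 19.6 FPKM in Col-0, with a log2 fold change of 0.32 ± 0.23 (limma adjusted p = 0.287). Its groups overlapped through Col-0 replicate 2. ARR9 was called when that library and MIR394A OE replicate 3 were both left out (0.49, limma adjusted p = 0.0418). At that setting 14.3% of all genes were called higher. These libraries lay together with Brz replicate 1 on the second principal component, but Brz replicate 1 was kept. The Col-0 library left out was the highest of its group for ARR9, so the choice favoured this call. ARR8 was the only one of the 9 tested members with a lower mean in Brz-treated seedlings, at 2.28, 1.94 and 2.47 FPKM, against 3.35, 6.2 and 1.80 FPKM in Col-0. The Col-0 libraries spanned the Brz-treated ones, the log2 fold change was -0.46 ± 0.32 (limma adjusted p = 0.255), and its sign changed to 0.03 once the length trend described below was removed. Both annotated loci overlap a second locus, ARR8 by 299 and ARR9 by 231 bases.

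Brz replicate 3 carried the highest values of the family. It was the highest of the 3 Brz-treated libraries for 9 of the 10 members, against 20.5% of all genes tested, and the highest of all 9 libraries for 7 members. The summed FPKM of the 10 genes was 139, 149 and 198 in the Brz-treated libraries and 113, 113 and 99.0 in Col-0. The means were 162 ± 31.7 and 108 ± 8.05, and the exact two-sided permutation p was 0.1, the smallest that 3 against 3 libraries allow. ARR4 carried much of this sum, and the other 9 members summed to 72.1, 67.8 and 106 FPKM in the Brz-treated libraries, against 60.1, 68.8 and 42.5 FPKM in Col-0. Without ARR4 the groups thus overlapped (exact two-sided permutation p = 0.2). Without Brz replicate 3, the members called were ARR3 and ARR4, against 8.74% of all genes called higher, and the median log2 fold change of the 9 members was 0.25, against -0.19 over all genes.

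**Figure D2:**
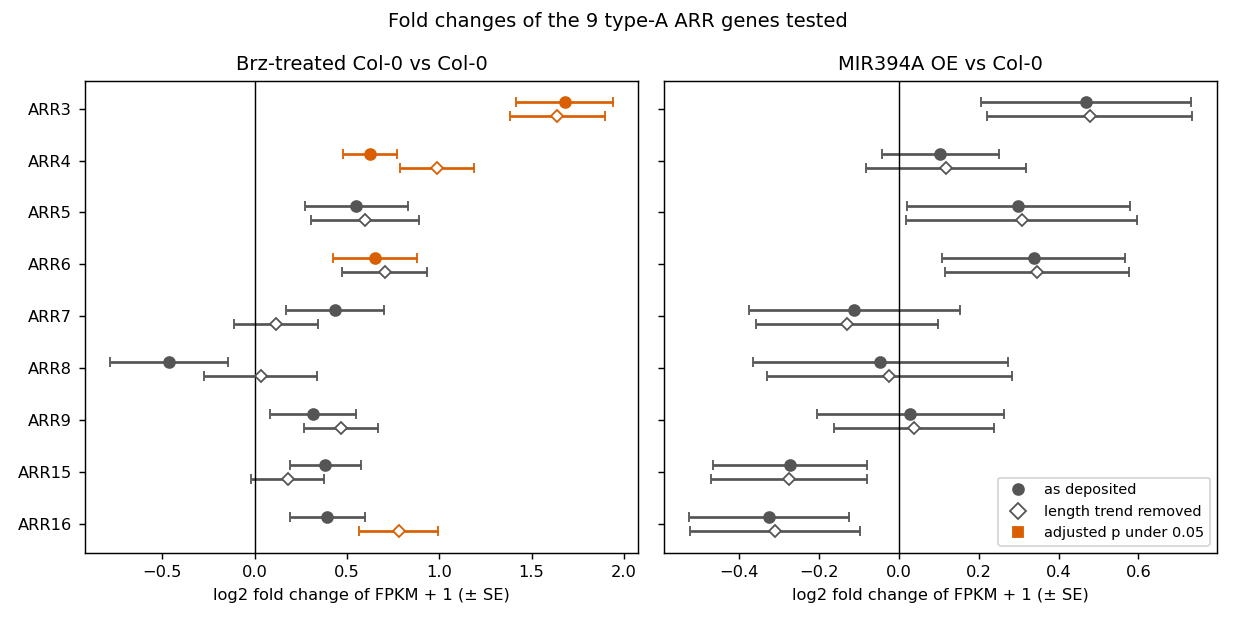
Log2 fold change of FPKM + 1 with its SE for the 9 members tested, in Brz-treated against untreated Col-0 (left) and in MIR394A OE against Col-0 (right); filled circles are values as deposited, open diamonds after removal of the length trend, orange marks an adjusted p under 0.05. ARR3 and ARR4 are called in both versions on the left and no member is called on the right.

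Across all genes, the fold change of Brz-treated against Col-0 seedlings followed transcript length, with a Spearman correlation of -0.67 over 17530 genes, given as a description because genes share libraries. The members are between 618 and 2370 bases long. ARR3 measures 1311 bases, and genes within 0.1 log2 units of that length had a median log2 fold change of 0.03, against 1.68 for ARR3. For ARR4, at 2017 bases, the median of genes of like length was -0.36, and for ARR16, at 2073 bases, it was -0.39. ARR6, at 1459 bases, stood beside a median of -0.06. ARR7, the shortest member tested at 943 bases, had a fold change of 0.44 beside a median of 0.36, and ARR8, the longest at 2370 bases, had -0.46 beside -0.50.

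A smooth trend on log2 length was therefore also removed from each library. After that, ARR3 (1.64, limma adjusted p = 0.0039), ARR4 (0.99, adjusted p = 0.00929) and ARR16 (0.78, adjusted p = 0.0273) were called higher, against 13.1% of all genes. ARR6 fell just short at 0.70 (adjusted p = 0.0512) with a local quadratic trend and just inside at 0.71 (adjusted p = 0.0493) with a local linear one, which called 13.2% of all genes higher. The linear version was run first, and the quadratic replaced it after results of the linear one had been seen. The median over all 9 members was 0.60, against 0.0002 over all genes, and all 9 were above 0. With median-ratio scaling between libraries, which shifts the median of all genes to 0.003 from -0.22, 7 members were called higher (ARR3, ARR4, ARR6, ARR7, ARR9, ARR15 and ARR16), against 24.4% of all genes.

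**Figure D3:**
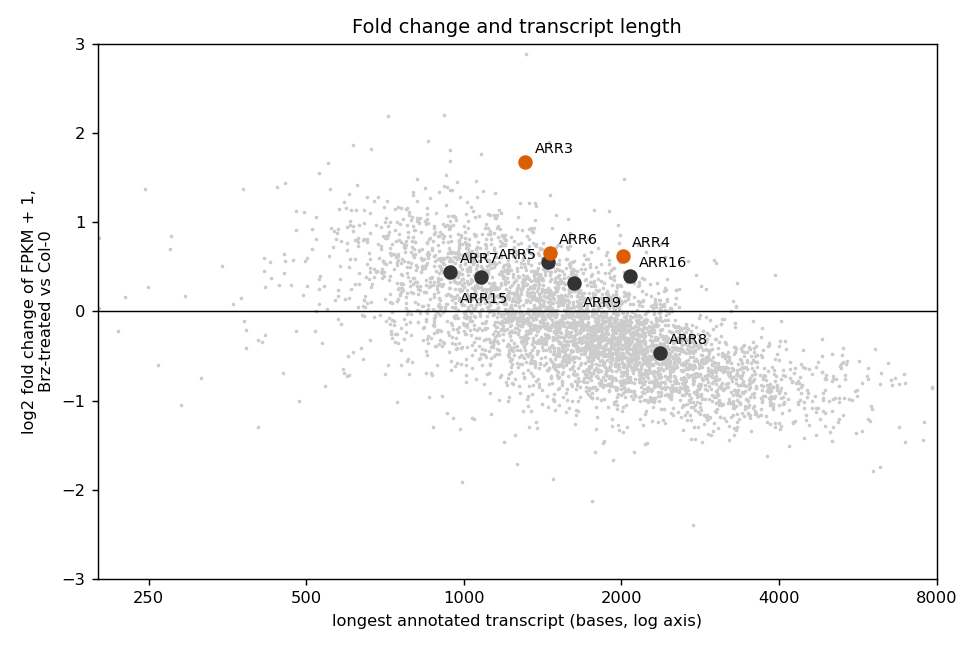
Log2 fold change of FPKM + 1 in Brz-treated against untreated Col-0 (linear axis) by the length of the longest annotated transcript (log axis); small grey points are a regular subset of the genes tested, large points the 9 members, orange where the adjusted p is under 0.05. The cloud slopes down with length, ARR3, ARR4 and ARR16 lie at its upper edge or above it, and ARR7 and ARR8 lie within it.

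No type-A member was called in MIR394A OE against Col-0. None of the 9 tested passed the threshold in limma or in any of its alternatives, against 0.034% of all genes called (6, all lower). With all libraries none reached an unadjusted p under 0.05, against 401 of 17662 genes. Without Col-0 replicate 2, 1 member did, and likewise 1 without Col-0 replicate 3. The log2 fold changes ran between -0.33 for ARR16 and 0.47 for ARR3, with a median of 0.03, against -0.01 over all genes. ARR3 stood at 2.38, 1.52 and 2.59 FPKM in MIR394A OE, against 0.57, 1.97 and 1.47 FPKM in Col-0, and its groups overlapped (0.47 ± 0.26, limma adjusted p = 1). ARR4 had 55.6, 53.0 and 55.6 FPKM in MIR394A OE and 52.5, 44.3 and 56.4 FPKM in Col-0 (0.10 ± 0.15). The SE of the 9 fold changes lay between 0.15 for ARR4 and 0.32 for ARR8, so small changes were not detectable. The summed FPKM of the 10 genes was 112, 103 and 134 in MIR394A OE, a mean of 116 ± 16.2, against 108 ± 8.05 in Col-0 (exact two-sided permutation p = 0.6).

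ARR6 was the single member whose groups did not overlap, at 13.0, 11.3 and 12.5 FPKM in MIR394A OE, against 11.1, 10.9 and 7.05 FPKM in Col-0, where 2.97% of all genes lay wholly higher. Its log2 fold change of 0.34 ± 0.23 was not called (limma adjusted p = 1). ARR5 (8.91, 7.21 and 10.7 FPKM in MIR394A OE) and ARR7 (5.76, 4.96 and 7.35 FPKM) overlapped with Col-0. ARR8 had 2.49, 2.51 and 5.49 FPKM and ARR9 22.4, 20.5 and 38.3 FPKM in MIR394A OE. In both, MIR394A OE replicate 3 was the highest of its group, as Col-0 replicate 2 was of Col-0. Without these 2 libraries the log2 fold changes of ARR8 and ARR9 were 0.004 and -0.07. ARR15, at 0.44, 0.70 and 0.44 FPKM, and ARR16, at 0.61, 1.19 and 1.36 FPKM in MIR394A OE, had the lowest fold changes, -0.27 ± 0.19 and -0.33 ± 0.20.

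Set directly against the Brz-treated seedlings, MIR394A OE had lower levels of ARR3, ARR4, ARR15 and ARR16. This comparison shares its Brz-treated libraries with the first and its MIR394A OE libraries with the second. Its groups differ both in line and in Brz treatment, which cannot be told apart in it. The log2 fold changes of MIR394A OE over Brz-treated seedlings were -1.21 ± 0.26 for ARR3, -0.72 ± 0.20 for ARR16, -0.65 ± 0.19 for ARR15 and -0.52 ± 0.15 for ARR4, with limma adjusted p of 0.00497, 0.0158, 0.0198 and 0.0164. In each of the 4 all MIR394A OE libraries were below all Brz-treated ones. Of all genes tested, 12% were called lower and 25.8% higher, and 16.1% lay wholly lower. ARR15 and ARR16 were not called between Brz-treated seedlings and Col-0, where their mean Col-0 levels lay between those of the other groups.

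ARR8 lay wholly higher in MIR394A OE, at 2.49 to 5.49 FPKM, against 1.94 to 2.47 FPKM in Brz-treated seedlings, as did 30.4% of all genes. Its log2 fold change of 0.42 ± 0.32 was not called (limma adjusted p = 0.313). Of the lower calls, that of ARR3 held whichever library was left out, and the others did not. Without Brz replicate 3 ARR3 alone was called, against 7.39% of all genes called lower, and the adjusted p was 0.0849 for ARR4, 0.0991 for ARR15 and 0.071 for ARR16. Without MIR394A OE replicate 1 the members called were ARR3 and ARR4, against 7.06% of all genes. ARR4 also missed the threshold when Brz replicate 2 was left out (adjusted p = 0.0627) or MIR394A OE replicate 2 (adjusted p = 0.0515). ARR9 was called once MIR394A OE replicate 3 was left out (-0.56, adjusted p = 0.0452), where 14.7% of all genes were called lower. With the length trend removed, ARR3, ARR4 and ARR16 were called lower, against 11.1% of genes, and ARR15 was not (-0.45, adjusted p = 0.126).

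Ratios within a sister pair set 2 related transcripts of the same library against each other and so do not depend on library scaling. They were computed as log2 of the ratio of FPKM for the 4 pairs in which both genes were tested, which gave 12 comparisons with exact two-sided permutation tests. The smallest exact p that 3 against 3 libraries allow is 0.1, and no exact test fell below 0.24 after adjustment. The ratio of ARR3 to ARR4 was -3.82, -3.79 and -3.41 in the Brz-treated libraries, -4.55, -5.12 and -4.42 in MIR394A OE, and -6.53, -4.49 and -5.26 in Col-0. The Brz-treated libraries lay wholly above both other groups, by 1.76 over Col-0 on average (exact p = 0.1), or 1.35 with the length trend removed. Col-0 replicate 1, where ARR3 was at 0.57 FPKM, gave the lowest ratio. Leaving out each replicate gave differences from Col-0 of 1.21 to 2.22. With 1 added to each FPKM, the log2 fold changes over Col-0 were 1.68 for ARR3 and 0.62 for ARR4.

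The ratio of ARR8 to ARR9 was nearly constant among Brz-treated libraries, at -3.85, -3.88 and -3.82, against -3.17, -3.03 and -2.80 in MIR394A OE and -2.95, -2.39 and -3.44 in Col-0. It lay wholly below Col-0, by -0.92 on average (exact p = 0.1). ARR8 is longer than ARR9, 2370 against 1625 bases, and the lower ratio runs in the direction of the length trend. With that trend removed, the difference of Brz-treated seedlings from Col-0 was -0.57, and that of MIR394A OE from Brz-treated seedlings was 0.52 in place of 0.85. ARR6 and ARR5, of nearly equal length, kept close ratios, with means of 0.54 ± 0.26 in Brz-treated seedlings, 0.47 ± 0.22 in MIR394A OE and 0.44 ± 0.22 in Col-0. The ratio of ARR15 to ARR7 averaged -2.74 ± 0.08 in Brz-treated seedlings, -3.53 ± 0.64 in MIR394A OE and -2.97 ± 0.14 in Col-0. For this low pair the difference of 0.23 between Brz-treated seedlings and Col-0 became -0.06 when 1 was added to each FPKM. The annotated transcripts of the tested pairs share runs of at most 41 identical bases. Only a read no longer than such a run could match both sisters without a mismatch, and the assignment of reads was not tested.

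**Figure D4:**
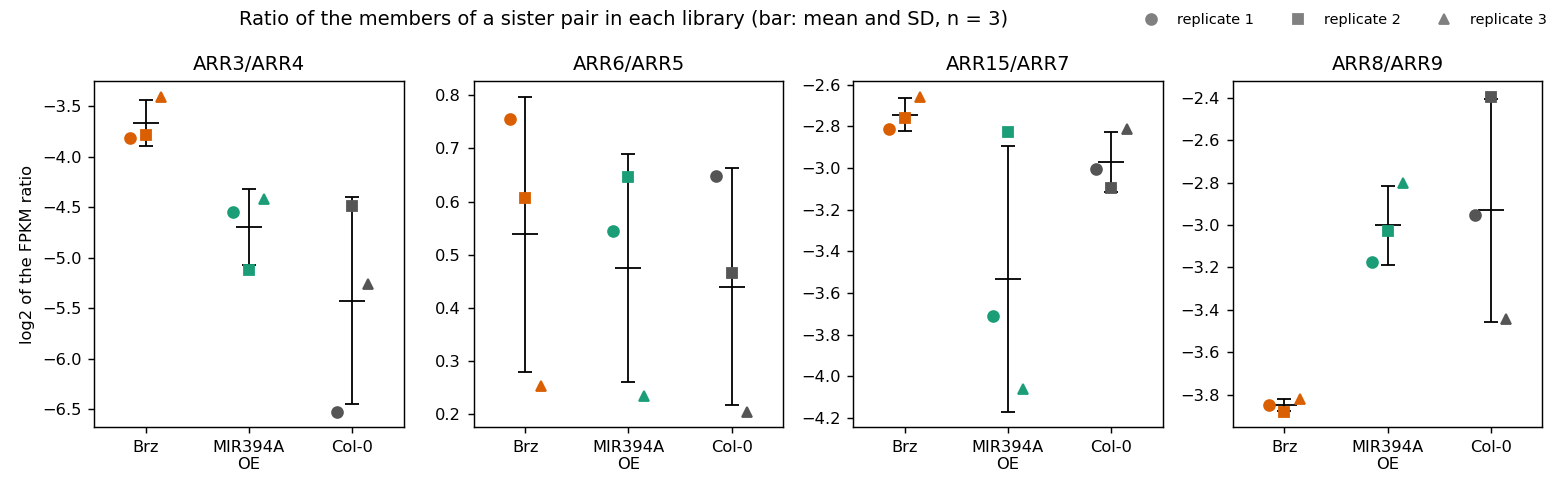
Log2 ratio of FPKM within the 4 tested sister pairs in each library (a separate linear scale for each pair), for Brz-treated Col-0, MIR394A OE and Col-0; symbols give the replicate and the bar the mean and SD. ARR3/ARR4 is highest and ARR8/ARR9 lowest in the Brz-treated libraries, and ARR6/ARR5 overlaps among all 3 groups.

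Upstream of the type-A genes, the cytokinin receptors were lower in Brz-treated seedlings as deposited. All 3 were called, against 28.7% of all genes called lower. AHK3, a receptor prominent in leaves, averaged 5.67 ± 1.97 FPKM in Brz-treated seedlings and 13.6 ± 1.92 FPKM in Col-0 (log2 fold change -1.16 ± 0.20, limma adjusted p = 0.00148). AHK2 averaged 1.24 ± 0.62 and 2.86 ± 0.63 FPKM in Brz-treated seedlings and Col-0 (-0.80 ± 0.21), and AHK4, known for its role in the root vasculature, 0.97 ± 0.38 and 2.05 ± 0.68 FPKM (-0.63 ± 0.21). With median-ratio scaling all 3 stayed called lower, at a median of -0.64, against 20.4% of all genes called lower. With the length trend removed none of the 3 was called, against 10.4% of all genes called lower. The values were -0.25 for AHK3, 0.10 for AHK2 and 0.28 for AHK4. Without Brz replicate 2 or without Brz replicate 3, AHK3 alone was called, against 14.8% and 16.4% of all genes called lower. AHK4 also missed the threshold when Col-0 replicate 1 or Col-0 replicate 2 was left out. Among 5 phosphotransfer genes tested of 6, AHP1 rose to 20.2 ± 2.41 FPKM in Brz-treated seedlings, against 10.8 ± 3.41 FPKM in Col-0 (0.88 ± 0.24, limma adjusted p = 0.0123). Its fold change was 0.92 after removal of the length trend, and without Brz replicate 3 it fell just short (0.81, adjusted p = 0.0522). AHP3 (0.42 ± 0.20) and AHP4 (0.29 ± 0.28) were not called.

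Of the type-B regulators, the activators of type-A transcription, 6 of 11 were tested and 3 were called lower in Brz-treated seedlings, against 28.7% of all genes. ARR12 averaged 7.68 ± 2.23 FPKM in Brz-treated seedlings and 13.6 ± 1.18 FPKM in Col-0 (log2 fold change -0.78 ± 0.20), ARR2 3.21 ± 1.01 and 5.34 ± 0.80 FPKM (-0.61 ± 0.20), and ARR1 16.9 ± 4.11 and 22.9 ± 1.08 FPKM (-0.44 ± 0.16), with limma adjusted p of 0.00904, 0.029 and 0.0481. None of these 3 was called with the length trend removed (-0.31, -0.02 and 0.16), where 10.4% of all genes were called lower. With that trend removed, 1 other type-B gene tested was called higher, against 13.1% of all genes. The call of ARR12 held whichever library was left out. ARR12 was the single type-B gene called without Brz replicate 2, Brz replicate 3 or Col-0 replicate 2, against 14.8%, 16.4% and 20.1% of all genes called lower, ARR1 missed the threshold without any of the Col-0 replicates and ARR2 without Col-0 replicate 3.

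Genes of hormone supply and removal were mixed. LOG5, whose enzyme releases active cytokinin from its nucleotide, averaged 3.46 ± 0.98 FPKM in Brz-treated seedlings and 1.58 ± 0.77 FPKM in Col-0 (0.81 ± 0.28, limma adjusted p = 0.0364), or 0.94 after removal of the length trend. CYP735A2, which makes the trans-zeatin type, averaged 0.90 ± 0.35 and 2.56 ± 1.12 FPKM in Brz-treated seedlings and Col-0 (-0.88 ± 0.26, limma adjusted p = 0.0195), and was not called after removal of the length trend (-0.63). IPT3, a nitrate-responsive enzyme of the first step of synthesis, had 7.43 ± 0.90 FPKM in Brz-treated seedlings and 5.73 ± 0.30 FPKM in Col-0 and was not called as deposited (0.32 ± 0.17), but was called with the length trend removed (0.50, adjusted p = 0.00935). As deposited, LOG5 and CYP735A2 were the calls among 9 synthesis genes tested of 19. That was 1 higher and 1 lower, against 13.2% and 28.7% of all genes. The call of LOG5 was lost without Brz replicate 1, Brz replicate 3, Col-0 replicate 1 or Col-0 replicate 3, and that of CYP735A2 without Brz replicate 2, Brz replicate 3 or Col-0 replicate 1. Among 7 of 10 genes of breakdown and conjugation tested, 3 cytokinin oxidases were called lower, against 28.7% of all genes. They were CKX4 at 0.49 ± 0.04 FPKM in Brz-treated seedlings and 1.63 ± 0.19 FPKM in Col-0 (-0.81 ± 0.14), CKX6 (-0.72 ± 0.18) and CKX7 (-0.46 ± 0.15). The calls of CKX4 and CKX6 held whichever library was left out, and that of CKX7 held when Brz replicate 1 was left out but was lost with each of the other 5. None of the 7 was called with the length trend removed, where 13.1% of all genes were called higher and 10.4% lower.

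Among 9 other cytokinin-response genes, all tested, 2 were called in Brz-treated seedlings, both lower, against 28.7% of all genes called lower. The median log2 fold change of the 9 was 0.11, against -0.22 over all genes, and 6 of the 9 were above 0. Removing the length trend left 1 called higher and 1 called lower, and median-ratio scaling gave 2 in each direction. The 2 called as deposited were CGA1 and GNC, GATA factors that promote chloroplast development and are induced by cytokinin and light. CGA1 averaged 2.33 ± 1.0 FPKM in Brz-treated seedlings and 6.83 ± 1.52 FPKM in Col-0 (-1.26 ± 0.24, limma adjusted p = 0.00229), and stayed called with the length trend removed (-1.10) and whichever library was left out. GNC averaged 9.88 ± 4.03 and 16.7 ± 2.25 FPKM in Brz-treated seedlings and Col-0 (-0.76 ± 0.25, limma adjusted p = 0.0274), and was not called after removal of the length trend (-0.51), nor without Brz replicate 2, Brz replicate 3, Col-0 replicate 1 or Col-0 replicate 2. CRF2, a cytokinin response factor, stood at -0.44 ± 0.17 (adjusted p = 0.0501). Over all 58 genes of these lists, 39 were tested, 2 were called higher and 12 lower in Brz-treated seedlings, against 13.2% and 28.7% of all genes. With the length trend removed the counts were 5 higher and 1 lower, against 13.1% and 10.4% of all genes, and with median-ratio scaling 7 higher and 9 lower, against 24.4% and 20.4% of all genes. Leaving out Brz replicate 3 gave 0 higher and 5 lower, against 8.74% and 16.4% of all genes. The lower calls also numbered 5 once Brz replicate 2 was omitted, 7 once Col-0 replicate 1 was and 7 once Col-0 replicate 2 was, against 14.8%, 21.2% and 20.1% of all genes. In MIR394A OE none of the 39 was called against Col-0, and 1 had an unadjusted p under 0.05.

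**Figure D5:**
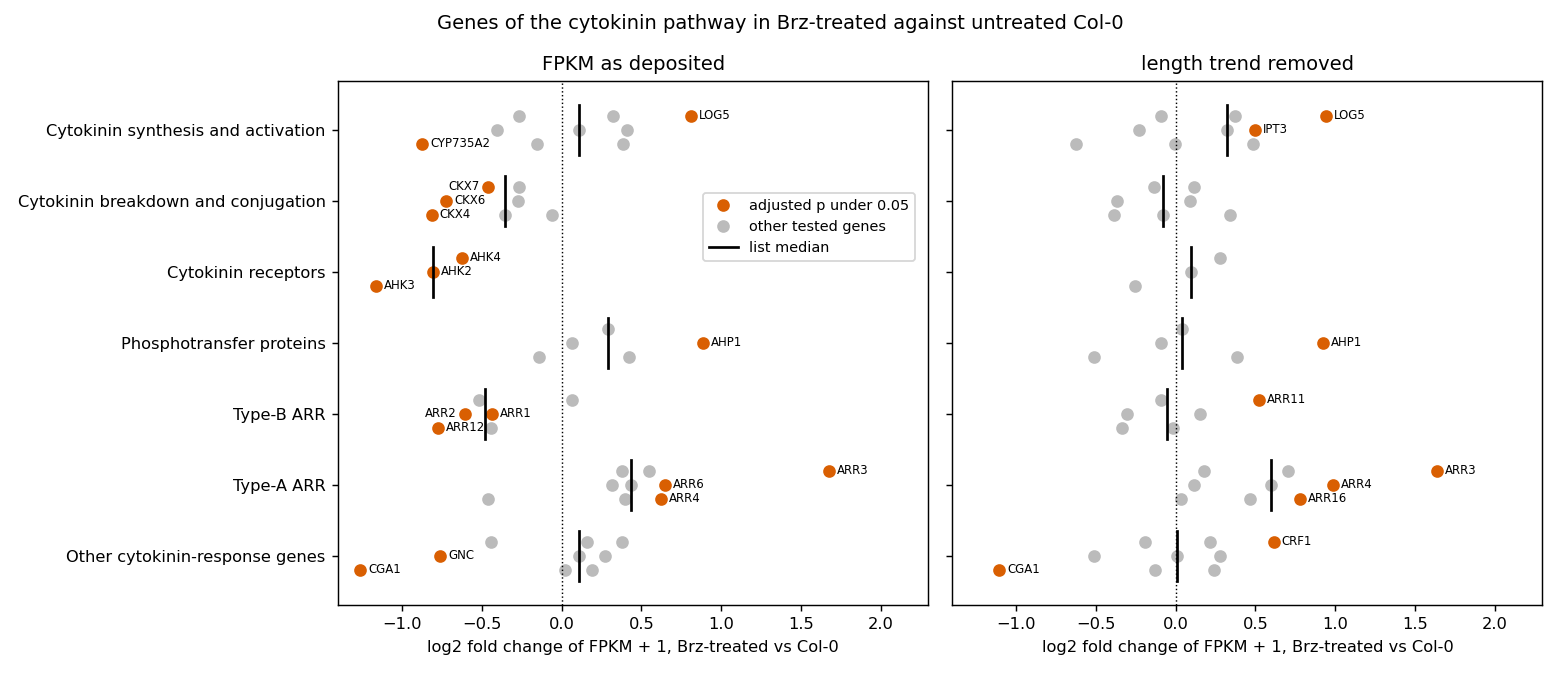
Log2 fold change of FPKM + 1 in Brz-treated against untreated Col-0 for each tested gene of the cytokinin pathway, by role, as deposited (left) and with the length trend removed (right); orange marks an adjusted p under 0.05 and the vertical line the list median. The receptors lie below 0 on the left and around 0 on the right, while ARR3 and ARR4 stay above 0 and called in both.

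Some markers of tissues also differed between Brz-treated seedlings and Col-0, and others were not called. The vascular markers SUC2, APL and IRX3 summed to 48.0 to 50.9 FPKM in Brz-treated libraries, 60.2 to 96.5 FPKM in MIR394A OE and 70.9 to 91.3 FPKM in Col-0. SUC2 (-0.80 ± 0.21) and IRX3 (-0.91 ± 0.21) were called lower in Brz-treated seedlings, and neither with the length trend removed. APL, at 10.7 ± 1.33 FPKM in Brz-treated seedlings and 9.17 ± 1.14 FPKM in Col-0, was not called (0.20 ± 0.17), but was called higher with median-ratio scaling (0.46, adjusted p = 0.0107). Of 4 shoot markers, LHCB1.3, a light-harvesting protein, was called higher (0.84 ± 0.14). The other 3 had negative fold changes that did not pass the test, at -0.72 ± 0.27 for FAMA (adjusted p = 0.0506), -0.30 ± 0.13 for RBCS1A and -0.23 ± 0.16 for STM, and the median of the 4 was -0.27. FAMA was called lower without Brz replicate 1 or without Col-0 replicate 3. The 4 summed to 32050 to 41098 FPKM in Brz-treated libraries, against 27267 to 33482 FPKM in Col-0. None of the 3 root markers tested was called, and the 4 root markers summed to 1453 to 1953 FPKM in Brz-treated libraries, against 1569 to 2091 FPKM in Col-0. The part of these markers in the type-A values was not tested.

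For the 2 most abundant members, the genes with the most similar profiles were sought as those with the smallest root mean square difference of log2(FPKM + 1), centred on its mean over the 9 libraries. For ARR4 these were AT4G21500, at a difference of 0.07 log2 units, AT3G07480 and AT5G38610, where ARR4 itself varied by 0.31 about its mean. AT3G07480 averaged 84.1 FPKM in Brz-treated seedlings, 62.8 FPKM in MIR394A OE and 57.6 FPKM in Col-0. For ARR9 they were CEN2 (AT3G50360), a centrin, at 0.07, AT3G25940 and PDIL5-1 (AT1G07960), a protein disulphide isomerase-like protein, where ARR9 varied by 0.32.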

How the data were processed

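The authors deposited a table of FPKM values per locus with 3 columns per group, per the file headers, and all 9 value columns were used. The submitters' processing notes list Bowtie2 and HISAT without a role or version. For the build, annotation, strand setting and FPKM program, nothing is given in the sources used here. Of 27647 loci, 3316 were blank in all libraries. FPKM are not counts. The steps of low values fit whole reads for 83.2% to 88.8% of the values within 0.1 of a read, short of what recovering counts would need, and counting error at these depths is similar among libraries.

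On log2(FPKM + 1), limma 3.58.1 in R 4.3.3 fitted 1 model of the 3 groups (eBayes, intensity trend, 6 residual degrees of freedom) to 17662 genes, those reaching 1 FPKM in at least 3 libraries. Two-sided p-values were adjusted by Benjamini-Hochberg over all genes in each comparison, with a threshold of 0.05. The length trend was removed per library by loess (span 0.5, local quadratic) on log2 transcript length from TAIR10.1, where 132 tested genes had no length and were only shifted by a median. The same annotation gave names, overlaps and upstream windows. Sister-pair ratios were tested by exact permutation. The members, the gene lists and the alternatives were chosen with earlier results of these data known, and the pair ratios and the leaving out of 2 libraries or of each replicate for the pathway counts were added during the work. The loess degree had not been fixed: a local linear trend was run first and, with its results seen, was replaced by the quadratic default and kept as an alternative. Genes named were all 10 members, the 3 genes of smallest p in each pathway list, the markers, and the 3 genes of most similar profile for the 2 most abundant members.

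Other settings were median-ratio scaling, no intensity trend, no filter or 1 at 5 FPKM, a pseudocount of 0.1 or 5, omission of each replicate, Col-0 replicate 2 with MIR394A OE replicate 3 left out, and the replicate number as a block.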

Additional observations from a re-analysis of the deposited data

How the results depend on the processing

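ARR3 and ARR4 stayed called in Brz-treated seedlings against Col-0 under every setting that held them, and no member was called in MIR394A OE against Col-0 under any. The count of members called in Brz-treated seedlings against Col-0 was 3, and 7 with median-ratio scaling, against 13.2% and 24.4% of all genes called higher. Leaving out each replicate gave 2 to 4 there, 0 to 0 for MIR394A OE against Col-0, and 1 to 5 for MIR394A OE against Brz-treated seedlings (4 with all libraries). Of all genes, 8.74% to 13.1% were then called higher in Brz-treated seedlings against Col-0. In MIR394A OE against Brz-treated seedlings 7.06% to 14.7% were called lower (12% with all libraries). In that last comparison a filter at 5 FPKM, which removes the low members, left 1, ARR4, against 15.6% of all genes called lower. The other pathway genes called in Brz-treated seedlings against Col-0 numbered 14, and 6 with the length trend removed by either loess. Of all genes, 41.9% were called in either direction, and 23.5% and 23.6% with the quadratic and the linear loess. Leaving out each replicate gave 5 to 17 of these other pathway genes in Brz-treated seedlings against Col-0, where 23.6% to 53.7% of all genes were called. It gave 0 to 0 in MIR394A OE against Col-0, where 0.017% to 0.0283% of all genes were called. In MIR394A OE against Brz-treated seedlings it gave 5 to 15 (12 with all libraries). Of all genes, 20.3% to 51% were called there (37.8% with all libraries). The cause of these shifts was not tested.

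Signs changed in small values. With the length trend removed, ARR8 moved to 0.03 (local quadratic and local linear, 0.0342 and 0.0308) in Brz-treated seedlings against Col-0, and to -0.0585 and -0.0526 in MIR394A OE against Brz-treated seedlings. Without both Col-0 replicate 2 and MIR394A OE replicate 3, values were -0.0046 for ARR4, 0.0041 for ARR8 and -0.0698 for ARR9 in MIR394A OE against Col-0. Leaving out each replicate there gave -0.32 to 0.10 for ARR7, -0.38 to 0.30 for ARR8 and -0.24 to 0.20 for ARR9, and in MIR394A OE against Brz-treated seedlings -0.49 to 0.13 for ARR5.

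The replicate numbers did not pair the libraries: deviations of same-numbered libraries correlated between -0.64 and 0.153. With the replicate block, 2 members (ARR3 and ARR4) were called in Brz-treated seedlings against Col-0, where 10.8% of all genes were called higher. The count was 0 in MIR394A OE against Col-0. It was 4 in MIR394A OE against Brz-treated seedlings, where 9.46% of all genes were called lower. Depth limits ARR17, ARR15 in MIR394A OE, and ARR3 in Col-0 replicate 1, where ARR3 had an estimated 15.9 reads.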
